A study of Mus musculus with 3 samples.

Results

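The genes of telomerase and shelterin were read out in NIH3T3, an established, spontaneously immortalized line of mouse embryonic fibroblasts. The 10 members are Tert, Terc, Dkc1, Terf1, Terf2, Tinf2, Acd, Pot1a, Pot1b and Rtel1, found by their exact gene name among 55573 listed genes. They occupy 11 rows, since Terc is listed under 2 gene identifiers. The dataset holds 3 UMI-RNAseq libraries of untreated NIH3T3 cells grown in DMEM with fetal bovine serum, named library 1, 2 and 3 here, and no other condition, so no group was compared with another. Whether the libraries came from separate cultures is not stated in the sources used here, and an SD over them may therefore cover technical spread only.

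Telomeres are tracts of short DNA repeats at the chromosome ends, which become shorter at each round of DNA replication. Telomerase adds repeats back: Tert is its reverse transcriptase, Terc the RNA that carries the template, and dyskerin, the product of Dkc1, binds and stabilizes Terc. Shelterin is the protein complex that coats the repeats and keeps chromosome ends from being treated as DNA breaks. In it, Terf1 and Terf2 bind double-stranded repeats, Pot1a and Pot1b bind the single-stranded end, Acd (TPP1) tethers the Pot1 proteins and recruits telomerase, and Tinf2 (TIN2) links these parts. Rtel1 is a DNA helicase that unwinds telomeric loops. Immortal cells need a means to maintain their telomeres, and laboratory mice start with long ones.

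The template of Terc and 3 promoters are shown first, because Tert and Terc form the catalytic core of telomerase, Tert had the lowest level of the members with fragments and Terc was listed at 0, and because Pot1a and Pot1b are paralogs that lay far apart in level. Terc occupies bases 96414437 to 96414859 of chromosome 3, minus strand, in GRCm38 (GENCODE M21) and is annotated as a noncoding RNA of 423 nt. Its first 60 bases follow, written as DNA, with the longest run that is complementary to the telomeric repeat TTAGGG in capitals. That run has 9 bases, occupies positions 28 to 36 of the GENCODE M21 entry, and occurs once in that transcript. In RefSeq, Terc has 397 nt and ends at 96414833, which is its start on the minus strand. The bases printed first, before that start, therefore lie outside the RefSeq entry.
Terc: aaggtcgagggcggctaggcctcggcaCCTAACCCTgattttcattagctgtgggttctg

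The promoters are taken from RefSeq on GRCm38.p6 and span 250 bases before to 50 bases after an annotated start of each gene. For Pot1b, the first of 2 listed promoters is shown. Capitals mark GC boxes (GGGCGG or its reverse complement CCGCCC, the site of Sp1-family factors) and the cAMP response element (TGACGTCA, which reads the same on both strands). The Tert window is chr13:73626661-73626960 on the plus strand, the Pot1a window is chr6:25809169-25809468 on the minus strand and the Pot1b window is chr17:55712587-55712886 on the minus strand.
Tert: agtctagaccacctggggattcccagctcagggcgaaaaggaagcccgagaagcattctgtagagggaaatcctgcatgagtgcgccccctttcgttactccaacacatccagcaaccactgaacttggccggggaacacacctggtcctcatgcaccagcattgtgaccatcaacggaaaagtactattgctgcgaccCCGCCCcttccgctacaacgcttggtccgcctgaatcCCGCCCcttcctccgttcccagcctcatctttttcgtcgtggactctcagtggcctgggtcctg
Pot1a: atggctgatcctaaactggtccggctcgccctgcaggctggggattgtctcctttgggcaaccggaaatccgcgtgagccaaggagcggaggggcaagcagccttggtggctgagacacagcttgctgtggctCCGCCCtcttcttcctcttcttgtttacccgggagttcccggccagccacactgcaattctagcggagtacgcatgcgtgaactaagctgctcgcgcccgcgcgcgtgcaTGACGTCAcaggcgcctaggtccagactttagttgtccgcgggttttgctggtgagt
Pot1b: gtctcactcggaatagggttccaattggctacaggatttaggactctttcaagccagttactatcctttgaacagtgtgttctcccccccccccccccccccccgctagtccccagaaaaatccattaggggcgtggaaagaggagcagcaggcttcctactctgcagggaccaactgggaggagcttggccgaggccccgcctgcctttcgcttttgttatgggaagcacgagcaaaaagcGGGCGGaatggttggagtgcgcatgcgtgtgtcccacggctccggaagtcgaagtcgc

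Promoter windows were listed for 8 members, and none for Terf1 and Terc. For Terf2 and Pot1b, 2 promoters were listed and only the first was searched. A GC box was found in 5 of these 8, namely Tert, Terf2, Pot1a, Pot1b and Rtel1, against 35.7% of all 32851 listed promoters. Tert carried 2 GC boxes, which begin at positions -51 and -14. The cAMP response element was found in Pot1a and Tinf2, and in 1.79% of all promoters. The core of ETS-family sites (CCGGAA, either strand) was found in 5 members and in 14.9% of all promoters. The CCAAT box (CCAAT, either strand) was found in 4 members and in 37.4% of all promoters. The letters of a TATA box (TATAAA, either strand) were found in Dkc1 alone, beginning at position -189, and in 13.6% of all promoters. The E-box CACGTG, bound by Myc and Max, was found in 0 of the 8 windows and in 7.15% of all promoters. These matches describe letters in the windows only, and no binding was measured.

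The values are FPKM as the authors deposited them, that is, the fragments of a gene scaled to a length of 1000 nt and to 1000000 fragments counted in the library, after removal of reads that shared a location and a unique molecular identifier (UMI). The fragments behind each value were recovered from the FPKM, and the library totals were 13959723 to 14423209. Among all listed genes, 12905 (23.2%) had a mean FPKM of at least 1, as did 49.3% of the 21903 protein-coding genes. Of the 10 members, 8 reached this level, 9 had fragments in every library, and Terc was listed at 0. The median over the 10 members was 19.5 FPKM, beside 17.5 for all genes at or above 1 FPKM and 22 for the protein-coding genes among them. Of 12 fibroblast markers used to check the label, 11 lay at or above 1 FPKM, from Pdgfrb upwards, with a summed level of 10775 to 10900 FPKM per library, and Lum was listed at 0. The 12 retina markers, checked because the extraction text of the labels speaks of retina, all stayed below 1 FPKM and summed to 1.01 to 1.61 FPKM per library, with the rod and cone genes Nrl and Opn1mw at 0.

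**Figure D1:**
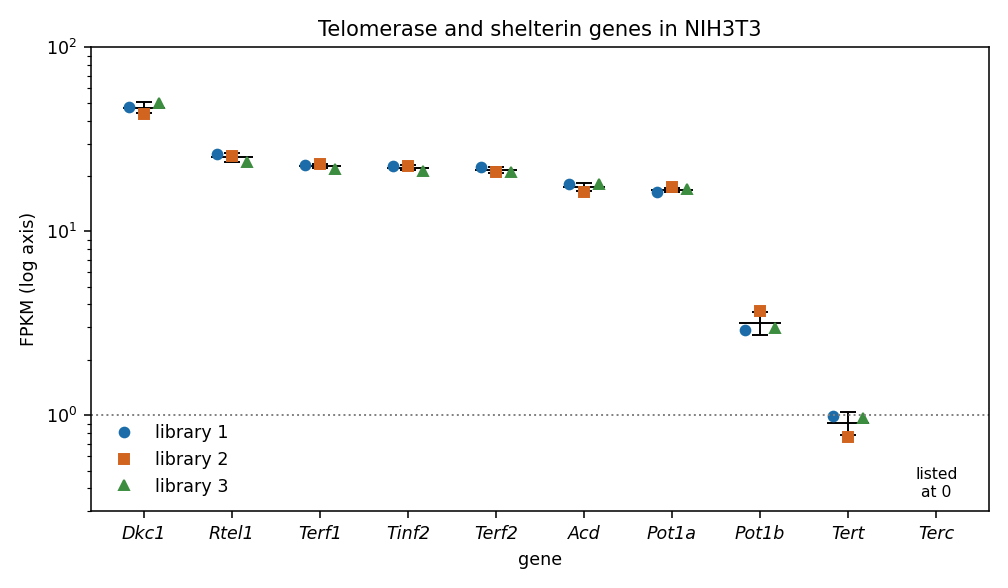
FPKM of the 10 members (log axis) in the 3 NIH3T3 libraries; points are libraries, and the dash and bars are the mean and SD over 3 libraries. Dkc1 lies highest at 47.0, 6 members lie between 16.8 and 25.2, Pot1b lies at 3.18, Tert just below the dotted line at 1 FPKM, and Terc is listed at 0.

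Of the telomerase components among the members, Dkc1 had the highest level, Tert was scarce, and no fragment was counted for Terc. Tert (ENSMUSG00000021611), the catalytic subunit, occupies bases 73626911 to 73649843 of chromosome 13, plus strand. Libraries 1, 2 and 3 gave 0.992, 0.760 and 0.968 FPKM, which average to 0.907 ± 0.127 (SD, n = 3). These values rest on 31, 23 and 30 fragments, counted per gene and not per isoform. Tert has 7 annotated isoforms, of which 1 is protein coding. The exact Poisson 95% intervals, which cover counting error only, were 0.674 to 1.41, 0.482 to 1.14 and 0.653 to 1.38 FPKM, in the same order. Library 2 was lowest, but the intervals of all libraries overlapped, and a difference between libraries was not detectable at this depth. Tert shared 0% of its 75-nt words with another annotated gene, and no exon of another gene overlaps it, so its fragments are not split with a paralog in the annotation. The level of Tert lay above 76.4% of all listed genes, most of which are at or near 0.

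The scarcity of Tert can be read against genes that fibroblasts do not use. Of 34 markers of retina, pluripotent and germ cells, and lymphoid cells, 18 were above 0 and the highest was Rcvrn, a photoreceptor calcium sensor, with a mean of 0.363 FPKM. All 34 stayed below the lowest library value of Tert in every library. The markers Pou5f1 and Sox2, which define pluripotent cells with active telomerase, were listed at 0, and Nanog had a mean of 0.0112 FPKM. Fragments of the Tert gene were thus counted in each library, with deposited values above those of these markers. In library 2, however, Rcvrn at 0.620 FPKM lay within the counting interval of Tert (0.482 to 1.14). With the longest protein-coding isoform as length, Tert had 0.382 FPKM in library 2, and the markers were not recomputed with that length. Tert made up 1.89% ± 0.164 (SD, n = 3) of the sum of Tert and Dkc1, or 3.05% ± 0.263 with the longest protein-coding isoform as length.

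Terc was listed at 0 in all libraries under both of its identifiers, ENSMUSG00000064796 and ENSMUSG00000118406. For the first, a count of 0 allows up to 3 fragments as a one-sided 95% limit, unlike the two-sided intervals given for Tert, which corresponds to 0.492, 0.508 and 0.496 FPKM in libraries 1, 2 and 3. The second is absent from GENCODE M21, and its description in the deposited table points to NCBI gene 21748. In RefSeq that gene covers 397 nt, from 96414437 to 96414833 of chromosome 3, and all 397 positions lie within the first entry. HTSeq, in its default setting, counts no read that falls on 2 genes at once. The setting used is not given in the sources used here, and the part of the double entry in the 0 was not tested.

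Terc carries no long poly(A) tail, and 30 other short RNAs of this kind were read beside it. Of these, 15 were listed at 0, 11 more had a mean FPKM above 0 but below 1, and 4 reached 1 FPKM. The 4 were Rn7sk (9.08 ± 2.38 FPKM, SD, n = 3), Snora31 (8.12 ± 1.5), Snora41 (1.77 ± 1.33) and Snora23 (1.65 ± 0.943). Rmrp and Rpph1, the RNAs of RNase MRP and RNase P, were at 0, as was Snora64, a box H/ACA RNA of the class that dyskerin binds. Over all listed genes, 52.9% were at 0 in every library, so the share of 15 in 30 lay near the background and says nothing particular about these RNAs. The data do not show whether Terc was absent from the cells or not captured.

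Dkc1 (ENSMUSG00000031403) occupies bases 75095854 to 75109777 of chromosome X, plus strand. It had 47.5, 43.5 and 49.9 FPKM in libraries 1, 2 and 3, with a mean of 47.0 ± 3.20 (SD, n = 3). With these deposited values it ranked 2971 among the 12905 genes at or above 1 FPKM. Its mean was 14.4 FPKM with the longest protein-coding isoform as length. Library 2 was lowest and library 3 highest. Dkc1 lay above Tert by a factor of 47.9, 57.3 and 51.5 in libraries 1, 2 and 3, which was larger than the spread between libraries. With the longest protein-coding isoform as length, the factors were 29.3, 35 and 31.5. Dyskerin also modifies ribosomal and spliceosomal RNAs, so its transcript is not specific to telomerase.

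With the deposited lengths, the 6 shelterin members fell into a group of 5 within a narrow range and a single gene, Pot1b, far below it. With the longest protein-coding isoform as length, the 5 spread from 9.44 FPKM for Pot1a to 19.2 for Terf1, and Pot1b stayed lowest at 2.12. Terf1 (ENSMUSG00000025925; chromosome 1, plus strand, 15805646 to 15844052) had 22.8, 23.1 and 21.9 FPKM in libraries 1, 2 and 3, with a mean of 22.6 ± 0.605 (SD, n = 3). Terf2 (ENSMUSG00000031921; chromosome 8, minus strand, 107069400 to 107096547), which shields the chromosome end from end joining, had 22.3, 20.9 and 21.1 FPKM, with a mean of 21.5 ± 0.773 (SD, n = 3). Terf1 lay above Terf2 by a factor of 1.02, 1.11 and 1.04 in libraries 1, 2 and 3. The mean log2 ratio of 0.08 ± 0.06 (SD, n = 3) was close to its spread, and the library values of both genes overlapped. With the longest protein-coding isoform as length, the library values did not overlap (18.7 to 19.7 FPKM for Terf1 and 13.6 to 14.5 for Terf2) and the log2 ratio was 0.47 ± 0.06. Whether the duplex-binding subunits were separated in level thus depended on the length used.

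Tinf2 (ENSMUSG00000007589; chromosome 14, minus strand, 55674689 to 55681820), the hub that holds Terf1, Terf2 and Acd together, had 22.7, 22.5 and 21.4 FPKM in libraries 1, 2 and 3, with a mean of 22.2 ± 0.690 (SD, n = 3). Acd (ENSMUSG00000038000; chromosome 8, minus strand, 105695860 to 105701102) had 18.0, 16.4 and 18.0 FPKM, with a mean of 17.5 ± 0.895 (SD, n = 3). Tinf2 lay above Acd by a factor of 1.26, 1.37 and 1.19, and the ranges of both genes did not overlap. Both genes overlap a neighbour on the opposite strand. Of the exonic positions of Tinf2, 31.2% (1540 of 4938) also belong to Gmpr2, which had 3.82, 4.12 and 3.51 FPKM. Of those of Acd, 33.3% (1208 of 3625) also belong to Carmil2, at 0.139, 0.120 and 0.234 FPKM. Whether strand was used in counting is not stated in the sources used here, so the levels of Tinf2 and Acd may leave out fragments from these positions, which was not tested. Of the 75-nt words of Tinf2, 23.4% also occur in other genes, Gmpr2 and Terf1 among them, as do 18% of those of Acd, in Carmil2, and 1.45% of those of Terf1.

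The paralogs that bind single-stranded repeats differed most. The mouse carries both Pot1a, which is known to hold back the ATR damage response, and Pot1b, which is known to limit trimming of the strand that ends at the telomere. Pot1a (ENSMUSG00000029676; chromosome 6, minus strand, 25743737 to 25809246) had 16.3, 17.3 and 16.9 FPKM in libraries 1, 2 and 3, with a mean of 16.8 ± 0.494 (SD, n = 3). Pot1b (ENSMUSG00000024174; chromosome 17, minus strand, 55651951 to 55712628) had 2.89, 3.68 and 2.97 FPKM, with a mean of 3.18 ± 0.438 (SD, n = 3). Every library value of Pot1a lay above every value of Pot1b, and Pot1b was highest in library 2. The ratio of Pot1a to Pot1b was 5.65, 4.70 and 5.67, which averages to 5.34 ± 0.556 (SD, n = 3), or 2.41 ± 0.16 as a log2 ratio. Pot1b made up 15.9% ± 1.47 (SD, n = 3) of the sum of both. The ratio rests on 98 to 121 fragments per library for Pot1b and 416 to 427 for Pot1a, and both genes shared 0% of their 75-nt words with any other gene, each other included.

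Terf2ip (Rap1), the shelterin subunit carried by Terf2 and not among the members, had 7.83, 7.89 and 7.63 FPKM, with a mean of 7.78 ± 0.139 (SD, n = 3). Terf2 lay above it by a factor of 2.85, 2.65 and 2.77. Over all shelterin genes, Terf2ip included, the summed level was 113, 112 and 110 FPKM in libraries 1, 2 and 3. Terf1 supplied 20.3% ± 0.361 of it (SD, n = 3), Tinf2 19.9% ± 0.372, Terf2 19.2% ± 0.565, Acd 15.7% ± 0.868, Pot1a 15.1% ± 0.543, Terf2ip 6.98% ± 0.0661 and Pot1b 2.85% ± 0.389. These are shares of transcript level per gene length and not of protein, and they hold for the deposited lengths. With the longest protein-coding isoform as length, Terf1 had 19.2 FPKM, Terf2 13.9 and Tinf2 12.8. The near-equal shares of these genes thus depended on the length used, and the SDs do not cover this. The shares were not recomputed with that length.

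Rtel1 (ENSMUSG00000038685), the helicase, occupies bases 181319739 to 181356616 of chromosome 2, plus strand. It had 26.2, 25.8 and 23.8 FPKM in libraries 1, 2 and 3, with a mean of 25.2 ± 1.30 (SD, n = 3), the next level below Dkc1. It rested on the most fragments of all members, with 714, 682 and 643 in libraries 1, 2 and 3. Its 21 annotated isoforms are the most of any member.

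The order of the mean level was Dkc1, Rtel1, Terf1, Tinf2, Terf2, Acd, Pot1a, Pot1b and Tert, with Terc listed at 0. The 8 neighbouring pairs were compared within libraries. They were ordered by the mean of these same libraries, so agreement with that order is in part built in. In 7 pairs the order was the same in 3 of 3 libraries, and in Acd and Pot1a it turned in library 2. In 5 pairs the library values did not overlap: Dkc1 and Rtel1 (mean log2 ratio 0.90 ± 0.16, SD, n = 3), Rtel1 and Terf1 (0.16 ± 0.04), Terf2 and Acd (0.30 ± 0.06), Pot1a and Pot1b (2.41 ± 0.16), and Pot1b and Tert (1.81 ± 0.40). Terf1 and Tinf2 (0.03 ± 0.02), Tinf2 and Terf2 (0.05 ± 0.05), and Acd and Pot1a (0.05 ± 0.11) overlapped and were not separated with the deposited lengths. With the longest protein-coding isoform as length, the log2 ratio was 0.59 ± 0.02 for Terf1 and Tinf2. It was then 0.16 ± 0.11 for Acd and Pot1a, with Acd higher in 3 of 3 libraries. For Tinf2 and Terf2 it was -0.13 ± 0.05, which turned the order of that pair in 3 of 3 libraries. Flipping the signs of the log2 ratios in every way (exact permutation test, two-sided) gave p = 0.25 for 7 pairs and p = 0.5 for Acd and Pot1a, with adjusted p of 0.286 and 0.5 (Benjamini-Hochberg over the 8 pairs). The smallest p that 3 libraries allow is 0.25, so this test could not pass 0.05.

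**Figure D2:**
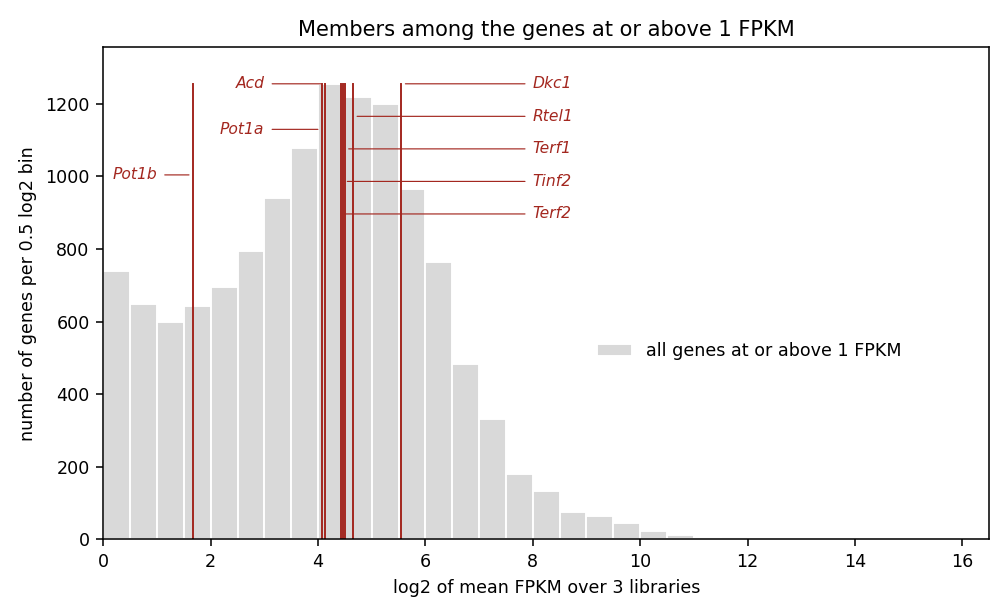
Number of genes per 0.5 log2 bin of mean FPKM over 3 libraries, for the 12905 genes at or above 1 FPKM; red lines are the 8 members at this level. Most members stand in the middle of the distribution, Dkc1 to the right of it and Pot1b in its lower part.

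Within the transcriptome, the core shelterin genes were of middling level with the deposited lengths. Among the 12905 genes at or above 1 FPKM, Terf1 lay above 57.2%, Tinf2 above 56.7%, Terf2 above 55.9%, Acd above 50.0% and Pot1a above 49.0%. Rtel1 lay above 60.4% and Dkc1 above 77%, while Pot1b lay above only 17.1%. Among the protein-coding genes of that level, the same values were 50.9% for Terf1 and 9.43% for Pot1b. The histogram of all genes at this level shows 5 members within one narrow stretch around its peak.

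**Figure D3:**
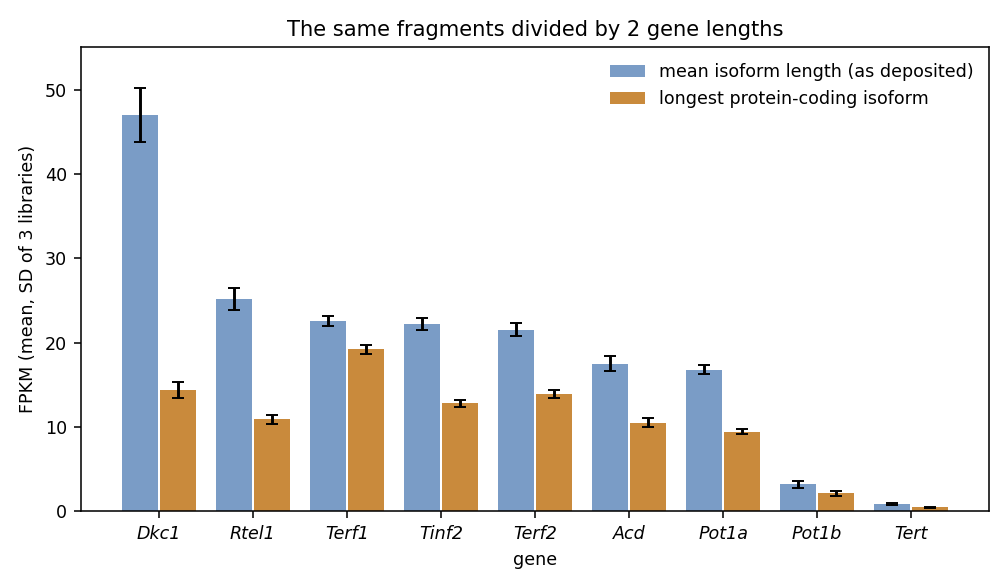
FPKM of the 9 members with fragments (mean with SD over 3 libraries), from the same fragments divided by the mean isoform length, as deposited, or by the longest protein-coding isoform of GENCODE M21. Dkc1 drops from 47.0 to 14.4 and Terf1 from 22.6 to 19.2, so that Terf1 becomes the highest member.

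The order of the upper members depended on the gene length in the FPKM. The deposited values imply the mean length of all annotated isoforms, with which whole fragments were recovered for 99.2% of the genes with fragments and a GENCODE M21 length. Dkc1 has 12 annotated isoforms, of which 3 are protein coding and many are short, so its mean length is 862 nt while its longest protein-coding isoform measures 2804 nt, a ratio of 3.25. The ratio was 2.33 for Rtel1, 1.99 for Tert, 1.78 for Pot1a, 1.74 for Tinf2, 1.66 for Acd, 1.54 for Terf2, 1.5 for Pot1b and 1.17 for Terf1. With the longest protein-coding isoform as length, which was added once the values were known, Terf1 came first with 19.2 ± 0.515 FPKM (SD, n = 3), before Dkc1 with 14.4 ± 0.983, Terf2 with 13.9 ± 0.502 and Tinf2 with 12.8 ± 0.397. Rtel1 followed with 10.9 ± 0.561, Acd with 10.5 ± 0.539 and Pot1a with 9.44 ± 0.277. Terf1 then lay above Rtel1 in 3 of 3 libraries, where the deposited values place Rtel1 above Terf1 in 3 of 3. Pot1b at 2.12 ± 0.292 and Tert at 0.456 ± 0.0639 remained the lowest members with fragments, and the log2 ratio of Pot1a to Pot1b was 2.16.

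**Figure D4:**
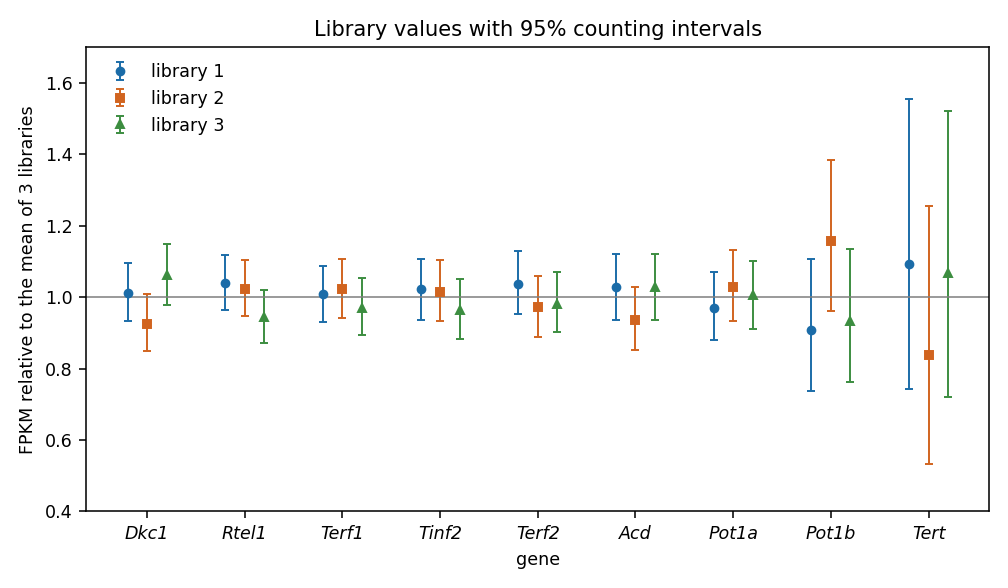
FPKM of each library divided by the mean of 3 libraries, for the 9 members with fragments; bars are exact Poisson 95% intervals of the recovered fragments, which cover counting error only. The intervals of the 3 libraries overlap for each gene and are widest for Tert and Pot1b.

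The spread between libraries was below that from counting alone for some members and above it for others. The coefficient of variation over the libraries was 2.67% for Terf1 against 4.01% from counting alone, 2.94% against 4.86% for Pot1a, 3.11% against 4.31% for Tinf2 and 3.60% against 4.35% for Terf2. For Tert it was 14% against 18.9%. It exceeded the counting value for Dkc1 (6.80% against 4.16%), Rtel1 (5.17% against 3.84%), Acd (5.13% against 4.6%) and Pot1b (13.8% against 9.70%). With a chi-square statistic of the fragments over the libraries, 0 of the 8 members with at least 30 fragments per library on average passed the 5% limit of 5.99, beside 10.1% of the 11635 genes tested. Dkc1 came closest with 5.29, followed by Pot1b with 4.0. The median over the 8 members was 1.92, beside 1.63 for all genes tested and 1.39 by counting alone. Without library 1, Dkc1 passed the limit for 2 libraries, since libraries 2 and 3 hold its lowest and highest value.

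The telomere genes outside the members were nearly all expressed. Of 86 such genes, in 6 lists and with Terf2ip, 81 reached 1 FPKM, and their median over all 86 was 27.6 FPKM. Of all listed genes 23.2% reached 1 FPKM, and of the protein-coding genes 49.3% did, which is the background for the counts below. In telomerase assembly and trafficking, 12 of 12 genes reached 1 FPKM, with a median of 33.7. The partners of dyskerin in the H/ACA particle were Gar1 at 144 ± 9.30 FPKM (SD, n = 3), Nhp2 at 50.0 ± 0.656, Nop10 at 27.7 ± 1.93 and the assembly factor Naf1 at 27.9 ± 2.50. The helicases Ruvbl1 and Ruvbl2, which help assemble telomerase and many other complexes, had 41.1 ± 1.28 and 109 ± 0.739 FPKM. Wrap53, whose product brings telomerase to Cajal bodies, had 7.94 ± 0.974, Shq1, the chaperone of dyskerin, 7.16 ± 0.259, and Coil, the scaffold of Cajal bodies, was lowest with 7.0 ± 0.229. All of these partners lay above Tert in each library.

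In Terc processing and decay, 10 of 10 genes reached 1 FPKM, with a median of 40.9, from Zcchc7 at 24.7 ± 1.36 FPKM (SD, n = 3) to Zfc3h1 at 86.0 ± 0.585. Parn, the deadenylase that matures Terc, had 44.8 ± 0.498 FPKM, and Tent4b, the poly(A) polymerase that works against it, had 28 ± 0.232. In the CST complex and its fill-in polymerase, which copy the strand that telomerase cannot, 7 of 7 reached 1 FPKM. The CST subunits Ctc1 and Stn1 stood close together at 32.8 ± 1.09 and 33.2 ± 0.871 FPKM, while Ten1 was lowest with 5.60 ± 0.269. Prim1, the small primase subunit, was highest with 33.4 ± 0.909.

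Among shelterin partners and telomere nucleases and helicases, 22 of 23 genes reached 1 FPKM, with a median of 22.7. Tnks2 and Tnks, the tankyrases, had 139 ± 2.44 and 74.1 ± 1.27 FPKM (SD, n = 3). Ercc1, part of a nuclease that can trim overhangs, was highest with 150 ± 1.49, and Dclre1b (Apollo), the nuclease carried by Terf2, had 4.11 ± 0.223. Fen1, the flap nuclease of DNA replication, was the exception with 0.340, 0.224 and 0.343 FPKM in libraries 1, 2 and 3. Of its exonic positions, 84.2% overlap exons of other genes, most of them those of the antisense gene Gm10143, itself at 0.238 ± 0.0822 FPKM, and the part of this overlap in the low value was not tested.

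**Figure D5:**
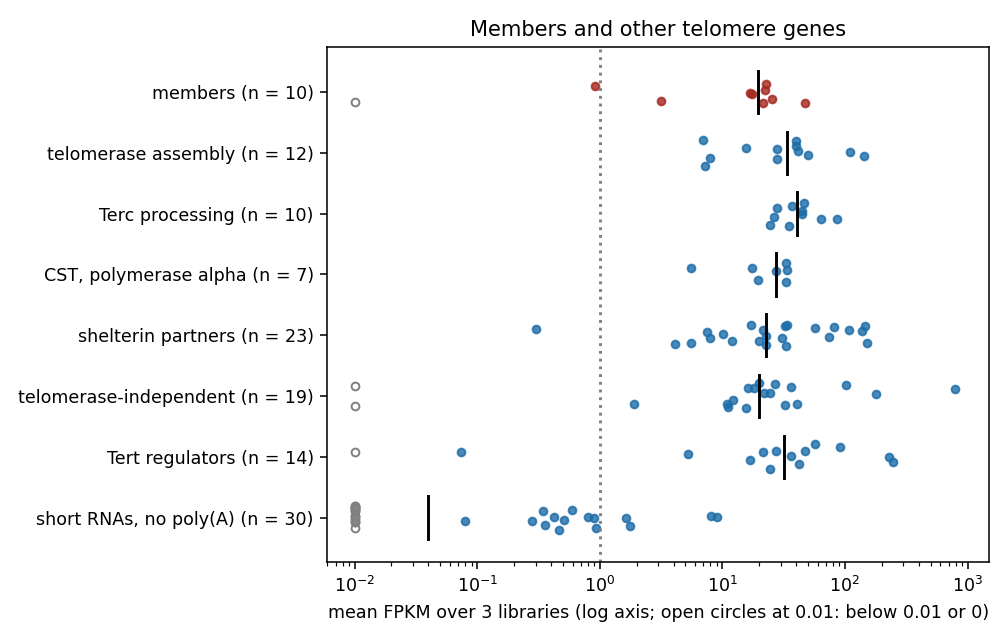
Mean FPKM over 3 libraries (log axis) of each member (red) and of each gene in 7 lists (blue); open circles at the left edge are genes below 0.01 FPKM or listed at 0, and black bars are medians. The protein genes gather between about 5 and 100 FPKM, with Tert, Fen1, Wt1, Tfap2b, Zscan4c and Zscan4d below 1, while the short RNAs without a poly(A) tail lie mostly at 0 or below 1.

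In genes known from telomerase-independent maintenance, 17 of 19 reached 1 FPKM, with a median of 20.0. Atrx and Daxx, the chromatin factors that are commonly lost in cells that keep telomeres by recombination, had 180 ± 2.58 and 32.5 ± 0.861 FPKM (SD, n = 3). The histone gene H3f3b was highest with 797 ± 9.65, and Zscan4c and Zscan4d, which mark a telomere-lengthening state of embryonic stem cells, were listed at 0. Of 14 regulators known at the Tert promoter, 12 reached 1 FPKM. Myc, an activator, was highest with 246 ± 6.11 FPKM, its partner Max had 47.2 ± 3.13, and Mxd1, a repressor that competes with Myc for Max, had 5.20 ± 0.212. Sp1 and Sp3, which bind GC boxes, had 91.3 ± 2.56 and 42.0 ± 0.549, and Klf4 had 230 ± 4.74, whereas Wt1 stayed at 0.0740 ± 0.00126 and Tfap2b was listed at 0. These are levels of transcripts in 1 condition, and no relation to the level of Tert could be tested.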

How the data were processed

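NIH3T3 cells were sequenced in 3 UMI-RNAseq libraries with 150 nt paired-end reads, under the heading of UMI-mRNA sequencing in the paper. Total RNA was checked for quality before library preparation. Whether and how mRNA was selected from it is not given in the paper's methods. According to the methods and the submitters' processing notes, UMI-tools (1.0.0) identified UMIs, HISAT2 (2.0.4) mapped the reads, duplicates were removed, and HTSeq (0.6.1) counted reads per gene. DESeq 1.10.1 is also named there, without a role. The build and annotation used for counting are not given in the sources used here. The authors deposited FPKM in 2 tables with identical values.

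Library totals were recovered as the most frequent whole value of 1000 × 1000000/(FPKM × length) over genes with 1 isoform in GENCODE M21 (GRCm38), in which 55394 of 55573 gene IDs were found. Fragments were FPKM × mean isoform length × total, divided by 1000 × 1000000, accepted when within 0.01 of a whole number in every library. The recovery was tested on simulated data built with the same gene lengths, which cannot show which annotation the authors used. No count model was fitted. Python 3.11.15, numpy 2.4.6, pandas 2.3.3, scipy 1.17.1 and matplotlib 3.10.9 were used. Fragments limited precision through Poisson error, from 23 fragments for Tert upwards. Shared sequence was the share of distinct 75-nt words found in a transcript of another gene on either strand. Alternatives were TPM, scaling by the median of ratios, each library left out, the median in place of the mean, other limits on FPKM and fragments, pseudocounts of 0.1 and 1, undivided fragments and, added later, the longest protein-coding isoform and ranking among protein-coding genes.

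The members and lists were chosen with earlier results of these data known. Genes named were the members, Terf2ip, the highest and lowest gene of each list, genes of the assembly, CST and Tert regulator lists, the short RNAs, marker extremes and overlapping genes. Other genes, such as Parn, Tent4b, the tankyrases, Dclre1b, Atrx and Daxx, were named for their known role after their values were seen.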

Additional observations from a re-analysis of the deposited data

How the results depend on the processing

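The alternatives yielded 131 values. In 108, a level or share shifted by at most 1 SD over the libraries, a count by at most 1.5 times, or a log2 ratio kept its sign, whatever its size; 23 shifted by more. Rescaling to 1000000 per library (TPM), which multiplies all genes of a library alike, gave 68.1 for Dkc1, 36.6 for Rtel1, 32.8 for Terf1, 32.2 for Tinf2, 31.1 for Terf2, 25.3 for Acd, 24.4 for Pot1a, 4.61 for Pot1b and 1.31 for Tert, which put Tert above 1. The longest protein-coding isoform as length, added after the data were examined, gave 14.4 for Dkc1, 10.9 for Rtel1, 19.2 for Terf1, 12.8 for Tinf2, 13.9 for Terf2, 10.5 for Acd, 9.44 for Pot1a, 2.12 for Pot1b and 0.456 for Tert. The median percentile of the 8 members at or above 1 FPKM was 56.3 among genes at that level, 78.5 among genes above 0, 89.9 among all genes listed and 49.9 among protein-coding genes, by construction of the lists ranked. The number of members past the chi-square limit ranged from 0 to 1 when each library was left out, with Dkc1 past it without library 1. The log2 ratio of Pot1a to Pot1b ranged from 2.37 to 2.50 with each library left out, but was 2.0 for undivided fragments, 2.10 with a pseudocount of 1 and 2.16 with the longest protein-coding isoform. That of Terf1 to Terf2 ranged from 0.04 to 0.10, but was 0.23 for undivided fragments and 0.47 with the longest protein-coding isoform. That length also turned the log2 ratio of Rtel1 to Terf1 from 0.16 to -0.83 and that of Tinf2 to Terf2 from 0.05 to -0.13. Acd and Pot1a, whose order turned in library 2 with the deposited lengths, kept 1 order in 3 of 3 libraries with that length. The number of pairs in the order of the deposited means in every library was then 6, not 7. No paired analysis was possible because all libraries belong to a single group.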

Other observations

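Genes of the meiotic telomere attachment to the nuclear envelope were at or near 0: Terb1 had 1, 0 and 1 fragments in libraries 1, 2 and 3, and Terb2 was listed at 0. Other genes annotated with telomeres were above 1 FPKM. Trir, an RNase named for its interaction with the telomerase RNA, had 81.8 ± 2.37 FPKM (SD, n = 3), Sde2, a homolog of a yeast telomere maintenance gene, had 36.3 ± 0.411, and Telo2, a chaperone subunit for the kinases that respond to DNA damage, had 15.9 ± 0.797. These genes were chosen after their values were seen.

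Fen1 rested on 11, 7 and 11 fragments in libraries 1, 2 and 3, and Gm10143, on the opposite strand over 1909 of its 2422 exonic positions, on 8, 15 and 10. Whether strand was used in counting is not stated, and the part of this overlap in both values was not tested.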
